A study of Mus musculus with 7 samples.

Results

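Cholesterol and fatty acid synthesis was followed through 35 named genes in neurospheres of conditional knockout mice for Med23 (Med23 CKO), a subunit of the Mediator complex, and of their controls. The 35 genes were taken by symbol from the 24346 gene symbols of the deposited table, and all 35 were found there and were among the 14151 genes tested. They are 4 genes of the SREBP system (the SREBP transcription factors and the proteins that control them), 6 enzymes of the mevalonate route, 11 enzymes that turn its product into cholesterol, 8 enzymes of fatty acid synthesis, 5 genes of sterol transport and of the liver X receptors, and the fatty acid oxidation gene Cpt1a.

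Hippocampal cells of single C57/BL6 mice were grown as primary neurospheres, floating clusters of neural stem cells (NSCs) and the progenitors they give rise to, and each mouse gave 1 RNA-seq library. The 4 controls (mice WT_215, WT_116, WT_213 and WT_220) were labelled wild type. The study's methods describe them as littermates that carried floxed Med23 without Cre. The 3 Med23 CKO libraries (mice KO_117, KO_214 and KO_218) came from Nestin-CreER:Med23 flox/flox mice, in which tamoxifen lets Cre remove exons of Med23 in cells where the Nestin promoter drives it, so that other cells of a culture can keep the gene. Both groups received tamoxifen by gavage at 200 mg/kg once daily for 5 days, and the cells were taken from mice of 2 months. The labels place the treatment at 2 months with 3 to 4 weeks of recovery, whereas the study's methods place it at a younger age for cultures. Values are FPKM, fragments scaled to the length of the transcript and to the mapped fragments of the library, which may be compared between genes because they are per length. Below, the values of a gene are always listed in the order WT_215, WT_116, WT_213 and WT_220 for the controls and KO_117, KO_214 and KO_218 for Med23 CKO. Fold changes are differences of mean log2(FPKM + 1), Med23 CKO minus control, a scale that understates the change of low genes.

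Cells make cholesterol from acetyl-CoA by way of mevalonate, isoprenoids, squalene and lanosterol, and they make fatty acids from the same acetyl-CoA. When membranes are low in sterol, Scap carries the SREBP transcription factors from the endoplasmic reticulum to the Golgi, where they are cut and freed to switch on the enzymes of both routes. Insig proteins hold Scap back when sterol is plentiful, and the liver X receptors (LXR) then raise the transporters that export cholesterol. Neural progenitors need both products for new membrane, and in the brain cholesterol is made locally because the blood-brain barrier keeps out plasma lipoproteins.

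The promoters of 4 genes are shown because these genes stand for the regulators, the mevalonate route, fatty acid synthesis and cholesterol export, and because the first 3 and the last were high in different libraries. Each sequence holds the 250 bases before an annotated start, from RefSeq on GRCm38.p6, read 5′ to 3′ on the strand of the gene. Capitals mark matches, on either strand, to TCACNCCAC (the core of the sterol regulatory element that SREBP binds), to CACGTG (the E-box) or to CCAAT (the box bound by NF-Y). On the opposite strand CCAAT reads ATTGG, and in the Fasn window 2 CCAAT matches on opposite strands overlap. The windows are chr13:119690101-119690350 (forward strand) for Hmgcs1, chr5:28071162-28071411 (forward) for Insig1, chr11:120824548-120824797 (reverse) for Fasn and chr4:53159896-53160145 (reverse) for Abca1. The Fasn window lies inside the span of the gene given below, and the Abca1 window partly so. For Fasn and Abca1 a start further upstream is thus annotated.
Hmgcs1: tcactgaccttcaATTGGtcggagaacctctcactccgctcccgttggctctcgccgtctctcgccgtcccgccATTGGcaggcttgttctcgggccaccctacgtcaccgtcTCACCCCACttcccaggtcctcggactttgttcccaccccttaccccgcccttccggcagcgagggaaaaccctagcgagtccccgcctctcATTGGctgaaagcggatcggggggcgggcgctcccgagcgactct
Insig1: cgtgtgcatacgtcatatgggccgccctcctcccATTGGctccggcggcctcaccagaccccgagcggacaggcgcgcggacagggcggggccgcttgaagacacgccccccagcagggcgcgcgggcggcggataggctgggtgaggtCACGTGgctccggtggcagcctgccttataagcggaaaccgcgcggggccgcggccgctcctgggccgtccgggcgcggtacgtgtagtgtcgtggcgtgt
Fasn: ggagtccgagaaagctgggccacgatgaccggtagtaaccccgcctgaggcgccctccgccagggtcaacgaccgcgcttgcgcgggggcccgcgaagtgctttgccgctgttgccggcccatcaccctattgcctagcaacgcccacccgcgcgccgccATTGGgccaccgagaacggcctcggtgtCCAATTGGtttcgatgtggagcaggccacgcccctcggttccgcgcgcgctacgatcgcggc
Abca1: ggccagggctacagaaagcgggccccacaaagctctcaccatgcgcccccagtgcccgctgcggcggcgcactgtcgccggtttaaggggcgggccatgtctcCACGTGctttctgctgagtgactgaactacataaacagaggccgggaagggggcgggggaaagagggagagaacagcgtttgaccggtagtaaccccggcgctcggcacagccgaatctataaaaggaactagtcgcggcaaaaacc

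In the window of Hmgcs1 the sterol element core lay 137 to 129 bases before the start, between CCAAT boxes at 176 to 172 and at 45 to 41. Insig1 had an E-box 101 to 96 bases before its start and a CCAAT box at 216 to 212. Abca1 had an E-box at 147 to 142 and no CCAAT box in the window. RefSeq windows were found for 27 of the 35 genes, which gave 34 windows because some genes have more than 1 start. Windows were not used for Stard4, Scd1, Scd2, Fdft1, Abcg1, Sqle, Fdps and Fads1. A CCAAT box was in 20 of the 34 windows (58.8%) and in 33.8% of 32851 windows of all genes. The E-box was in 6 (17.6%, against 6.02%), in Abca1, Dhcr7, Hsd17b7, Insig1, Sc5d and Scap. The sterol element core was in 1 (2.94%, against 1.05%), that of Hmgcs1. An exact DR4 element (AGGTCA half-sites with 4 bases between them, bound by LXR) was in 0, against 0.0152% (5 of 32851 windows). At so low a share 34 windows would hardly hold one, and DR4 elements with inexact half-sites, in Abca1 or elsewhere, were not searched for. A match is a run of letters and not a measured binding site, and a window without one says only that these letters are not in it.

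Med23 itself had 11.4, 10.3, 12.9 and 10.1 FPKM in the controls and 9.97, 9.27 and 8.12 FPKM in Med23 CKO, so that every Med23 CKO value lay below every control value. Its log2 fold change was -0.26 (SE 0.18), and the exact permutation test, two-sided, gave p = 0.0571 where the smallest p it allows is 0.0286. Fragments from exons that are not deleted still count toward this FPKM. Between 16841 and 18113 genes had a value above 0 in a library, and the depth of the libraries is unknown because only FPKM was used. No pair of the 21 pairs of libraries held identical values.

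None of the 35 genes differed between Med23 CKO and control neurospheres beyond the spread between mice. At an adjusted p under 0.05 (limma, Benjamini-Hochberg over 14151 genes), 0 of 35 were higher and 0 lower, where the share of all genes tested called was 0% in each direction. At an unadjusted p under 0.05, 0 of 35 were higher, against 0.502% of all genes tested (71 genes), and 0 were lower, against 0.996% (141 genes). With quantile normalization these 71 and 141 became 102 and 123, and with each library centred on its median 99 and 119. The 3 Med23 CKO values were all higher than the 4 control values for 0 of 35 genes (0.784% of all genes tested) and below them for 0 of 35 (1.53%). At these background shares fewer than 1 gene of 35 would be called, so the counts of 0 do not set the genes apart. The smallest unadjusted p among them was 0.385, for Scap, and every adjusted p from limma was 0.9999. The smallest exact permutation p was 0.4.

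The log2 fold changes ran from -0.52 for Fasn to 0.19 for Nr1h3, with 10 of 35 above 0 and 25 below. Their median was -0.09, beside -0.03 over all genes tested, of which 43.8% were above 0. The size of the fold change was near that of other genes, with a median of 0.14 against 0.15, but its standard error was larger, with a median of 0.50 against 0.28. For 35 of 35 genes the SD within groups, pooled over both, exceeded the size of the fold change. The 95% interval lay within -1 and 1, less than a doubling or halving of FPKM + 1, for 9 of the 35. These were Ebp, Sc5d, Hsd17b7, Scap, Nr1h2, Nr1h3, Msmo1, Acly and Cpt1a. Changes in FPKM itself can be larger, most of all for Nr1h3, with a control mean of 1.53 FPKM. The median rested on single mice: it was 0.26 without KO_214, with 27 genes above 0 and 8 below, and -0.62 without KO_117, with 6 above 0 and 29 below.

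**Figure D1:**
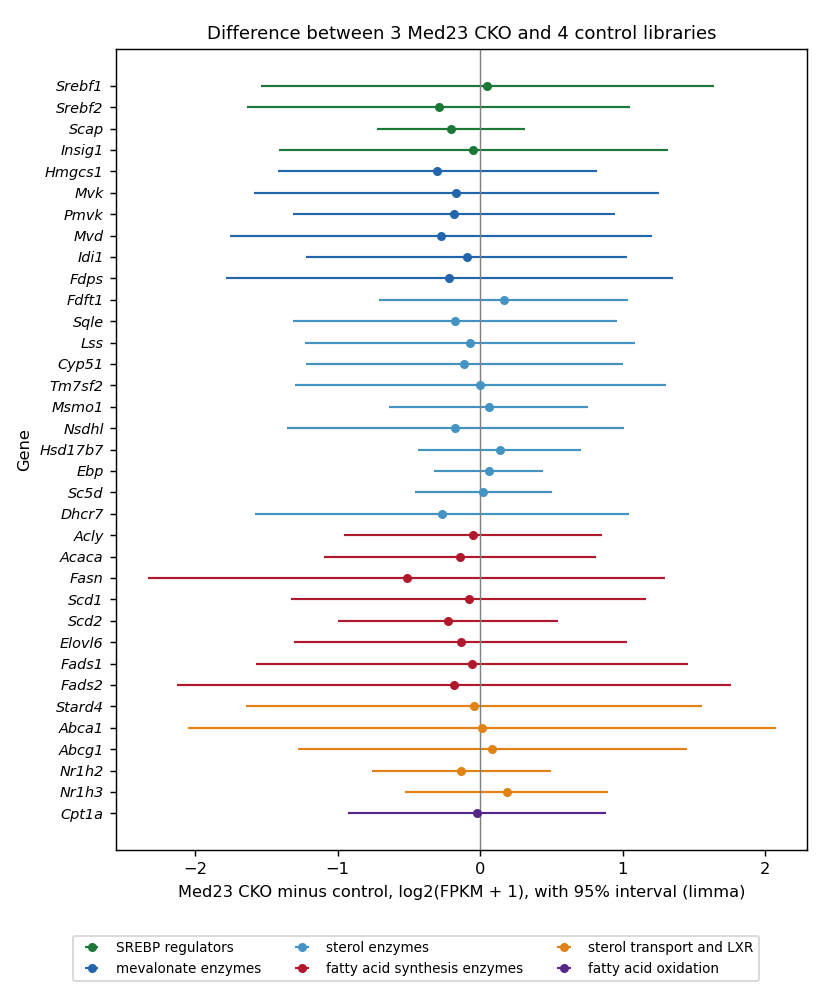
Difference in mean log2(FPKM + 1) between 3 Med23 CKO and 4 control libraries for each of the 35 genes (points), with its 95% interval from limma (lines), coloured by role. Every interval crosses 0, from the narrow one of Ebp (-0.32 to 0.44) to the wide one of Abca1 (-2.05 to 2.07).

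The spread was in the libraries rather than between the groups. Of the 7 libraries, KO_117 (Med23 CKO) held the highest value for 26 of 35 genes (23.6% of all genes tested had their highest value there), and KO_214 (Med23 CKO) the lowest for 22 of 35 (18.7%). KO_117 lay above KO_214 for 29 of 35 genes. That pair was picked after the values were seen, and its share over all genes tested was not computed. The 3 highest values were in WT_215, WT_220 and KO_117 for 23 of 35 genes (26.1% of all genes tested), a trio of 2 controls and 1 Med23 CKO mouse that was picked after the values were seen and is described without a test. Over the 3 Med23 CKO libraries, the highest and lowest values of a gene were 2.06 apart on the log2 scale (median of the 35 genes), against 0.81 for all genes tested. Over the 4 controls they were 1.07 apart, against 0.69. By their median, the 35 genes were spread more widely on this scale than all genes tested in both groups, and most widely in Med23 CKO. The comparison was not matched for expression level, and this scale compresses the spread of low genes.

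**Figure D2:**
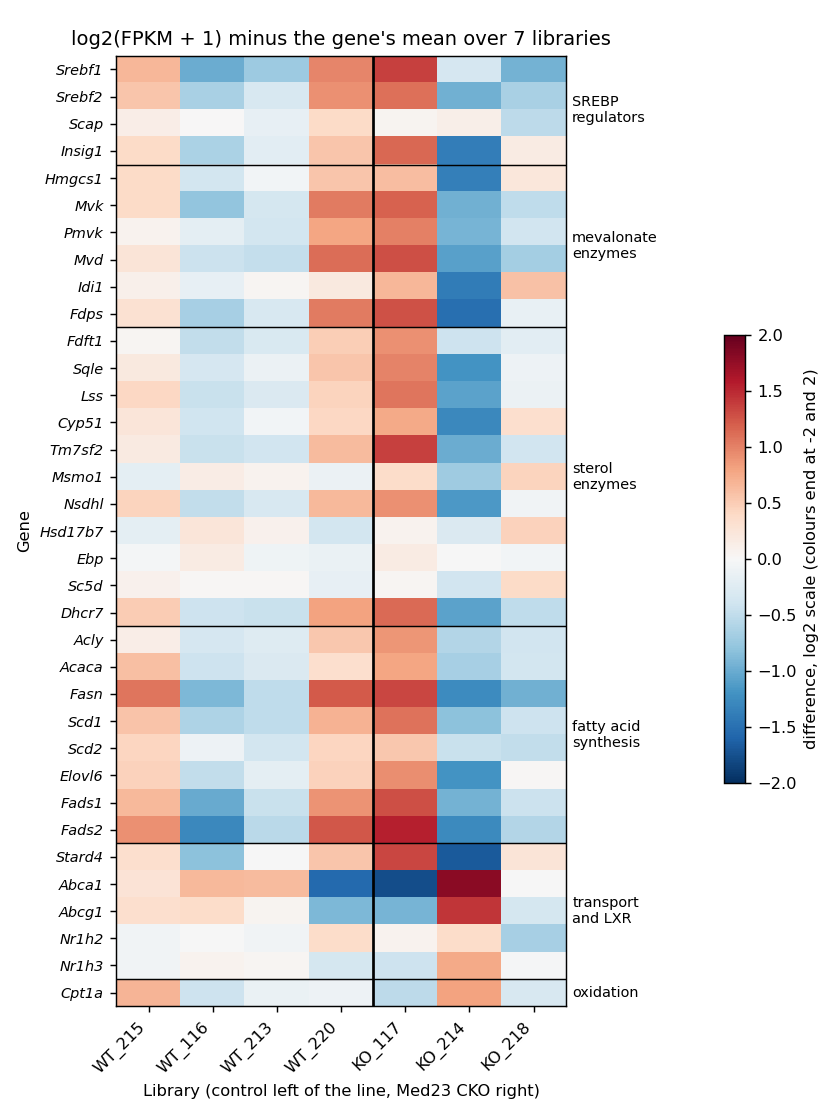
Heatmap of log2(FPKM + 1) minus the mean of each gene over the 7 libraries, with genes in rows by role and libraries in columns (4 controls left of the line, 3 Med23 CKO right). Most rows are red in WT_215, WT_220 and KO_117 and blue in KO_214, while Abca1, Abcg1, Nr1h3 and Cpt1a are red in KO_214.

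Of the 4 genes of the SREBP system, Srebf1 and Srebf2 encode the SREBP transcription factors themselves. Srebf1, on chromosome 11, 60199084 to 60224186 (mm10), had 76.4, 23.7, 28.5 and 95.03 FPKM in the controls and 125, 37.8 and 24.5 FPKM in Med23 CKO. Srebf2, the main activator of the cholesterol genes, had 109, 47.1, 59.5 and 141 FPKM in the controls and 161, 37.9 and 47.3 FPKM in Med23 CKO. In both genes WT_215, WT_220 and KO_117 were high and the other 4 libraries low, so that the groups overlapped. KO_117 lay above every control in both genes, and KO_214 lay below every control in Srebf2. The log2 fold change was 0.05 (SE 0.68, 95% interval -1.54 to 1.64) for Srebf1 and -0.29 (SE 0.58, 95% interval -1.63 to 1.05) for Srebf2. Insig1, itself a target of SREBP that restrains it, had 131, 64.4, 86.3 and 149 FPKM in the controls and 224, 37.8 and 112 FPKM in Med23 CKO. Its values in KO_117 and KO_214 were 5.93-fold apart, and its log2 fold change was -0.05 (SE 0.58, 95% interval -1.41 to 1.32). Scap, the escort of SREBP, varied least of the 4 genes, with 41.9, 38.2, 33.9 and 49.7 FPKM in the controls and 39.8, 41.3 and 26.1 FPKM in Med23 CKO and a log2 fold change of -0.20 (SE 0.22, 95% interval -0.72 to 0.31). Of the exon bases of Scap 13.2% also belong to an antisense gene, and the library kit does not mark strand.

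The 6 enzymes of the mevalonate route all had log2 fold changes below 0, from -0.30 to -0.09 (median -0.20), and 0 of them passed the test. Hmgcs1, which makes HMG-CoA and whose window holds the sterol element core shown above, had 294, 176, 217 and 334 FPKM in the controls and 348, 87.3 and 265 FPKM in Med23 CKO. It was 1.904-fold higher in the highest control than in the lowest, and 3.98-fold in Med23 CKO, with a log2 fold change of -0.30 (SE 0.48, 95% interval -1.42 to 0.82). Of its exon bases 12.1% overlap a gene on the other strand. Mvk, the kinase that phosphorylates mevalonate, had 35.9, 15.3, 21.1 and 57.3 FPKM in the controls and 63.03, 13.6 and 18.8 FPKM in Med23 CKO. Pmvk, the next kinase, had 39.2, 32.5, 28.6 and 65.2 FPKM in the controls and 75.8, 18.99 and 28.3 FPKM in Med23 CKO. Mvd, which forms isopentenyl diphosphate, had 36.6, 22.2, 21.5 and 67.2 FPKM in the controls and 75.9, 13.8 and 18.5 FPKM in Med23 CKO. In these 3 genes KO_117 was highest, WT_220 second and KO_214 lowest. Idi1, the isomerase of isopentenyl diphosphate, was close to constant in the controls and not in Med23 CKO, with 95.6, 79.02, 91.2 and 102 FPKM in the controls and 141, 33.1 and 133 FPKM in Med23 CKO. Its values in KO_117 and KO_218 lay above all 4 controls and that in KO_214 below all 4, and without KO_214 its log2 fold change was 0.58 at an unadjusted p of 0.0136 from limma. Fdps (chromosome 3, 89093588 to 89101967), which makes farnesyl diphosphate, had the widest range of the 6, with 198, 101, 128 and 331 FPKM in the controls and 389.9, 55.6 and 145 FPKM in Med23 CKO. Its highest and lowest values, both in Med23 CKO, were 7.01-fold apart, and its means were 189.6 ± 103 FPKM in the controls (SD, n = 4) against 197 ± 173 FPKM in Med23 CKO (SD, n = 3). A gene model on the same strand shares 26.7% of the exon bases of Fdps, so its reads could be split between them.

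Among the 11 enzymes from farnesyl diphosphate to cholesterol, 6 log2 fold changes were above 0 and 5 below (median 0.00), and 0 passed the test. Fdft1, squalene synthase, had 37.9, 25.9, 29.6 and 52.00 FPKM in the controls and 70.2, 27.5 and 31.6 FPKM in Med23 CKO, and 18.3% of its exon bases overlap Ctsb, a lysosomal protease gene on the other strand. Sqle, the epoxidase that is a rate-limiting step of the route, had 97.1, 66.9, 78.1 and 125 FPKM in the controls and 169, 36.4 and 79.2 FPKM in Med23 CKO. Lss, which closes the rings to form lanosterol, had 31.3, 16.8, 18.9 and 32.1 FPKM in the controls and 49.8, 10.6 and 21.4 FPKM in Med23 CKO. KO_117 was highest in all 3, and KO_214 was lowest in Sqle and Lss. Cyp51, lanosterol demethylase, had 68.5, 43.8, 55.6 and 77.1 FPKM in the controls and 98.98, 23.3 and 73.1 FPKM in Med23 CKO. Tm7sf2, a sterol reductase, had 15.3, 9.596, 10.1 and 21.2 FPKM in the controls and 36.01, 6.26 and 10.1 FPKM in Med23 CKO, and 12.1% of its exon bases are shared with Vps51 on the same strand. Nsdhl, which removes carbon at the same methyl positions as Msmo1, had 38.3, 19.5, 22.1 and 43.99 FPKM in the controls and 53.2, 11.96 and 26.3 FPKM in Med23 CKO. Dhcr7, which makes cholesterol from 7-dehydrocholesterol, had 53.5, 27.8, 27.3 and 66.4 FPKM in the controls and 82.8, 17.2 and 25.9 FPKM in Med23 CKO. These 4 genes had the order of the mevalonate enzymes, with KO_117 highest and KO_214 lowest.

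A further 4 sterol enzymes lacked that order. Ebp, the sterol isomerase, was the steadiest of the 35 genes, with 15.9, 18.3, 15.2 and 14.7 FPKM in the controls and 18.4, 16.1 and 15.7 FPKM in Med23 CKO. Its means were 16.02 ± 1.61 FPKM in the controls (SD, n = 4) against 16.7 ± 1.46 FPKM in Med23 CKO (SD, n = 3), and its log2 fold change was 0.06 (SE 0.16, 95% interval -0.32 to 0.44). Sc5d, the sterol desaturase, had 44.4, 42.8, 42.8 and 37.4 FPKM in the controls and 43.1, 32.1 and 55.05 FPKM in Med23 CKO. Hsd17b7, a sterol ketoreductase, had 14.6, 20.1, 18.1 and 12.9 FPKM in the controls and 17.7, 13.6 and 23.8 FPKM in Med23 CKO. Msmo1, the methylsterol oxidase, had 89.6, 115, 108 and 94.9 FPKM in the controls and 134, 62.4 and 141 FPKM in Med23 CKO. In Sc5d, Hsd17b7 and Msmo1 the highest value was in KO_218. The log2 fold change of Msmo1 was 0.06 (SE 0.30, 95% interval -0.64 to 0.75), and without KO_214 it was 0.43 at an unadjusted p of 0.0455. Idi1 and Msmo1 were the 2 of 35 genes that passed an unadjusted 0.05 when that mouse was left out, and neither passed after adjustment. Without it, 78 of all 14151 genes tested were higher and 205 lower at that threshold. KO_214 held the lowest value of Idi1 and of Msmo1, so leaving it out raised their Med23 CKO means.

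All 8 fatty acid synthesis genes had their 3 highest values in WT_215, WT_220 and KO_117, and all 8 were highest in KO_117. Acly, which supplies cytosolic acetyl-CoA, had 102, 73.4, 77.8 and 135 FPKM in the controls and 171, 61.7 and 70.9 FPKM in Med23 CKO. Acaca, the carboxylase that commits it to fatty acids, had 27.4, 12.9, 14.3 and 22.5 FPKM in the controls and 31.01, 10.8 and 13.4 FPKM in Med23 CKO. Fasn, fatty acid synthase (chromosome 11, 120805958 to 120825166), had 137, 34.5, 45.4 and 154 FPKM in the controls and 166, 26.5 and 33.04 FPKM in Med23 CKO. Fasn had the lowest log2 fold change of the 35 genes, -0.52 (SE 0.78, 95% interval -2.33 to 1.30), and an exact permutation p of 0.629. Without KO_214 it was -0.03 and without KO_117 it was -1.33, so that its size depended on which mouse was in. Elovl6, which lengthens palmitate, had 34.2, 17.1, 21.3 and 33.97 FPKM in the controls and 47.8, 10.1 and 25.02 FPKM in Med23 CKO.

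Scd2, the main stearoyl-CoA desaturase of brain, was the most abundant of the 35 transcripts. It ranked 90 among all genes of the table by control mean, with 890.2, 618, 512 and 887 FPKM in the controls and 964, 487 and 470.1 FPKM in Med23 CKO. Scd1 had 101, 43.9, 47.6 and 109.9 FPKM in the controls and 145, 38.01 and 50.9 FPKM in Med23 CKO. Fads1, which makes polyunsaturated fatty acids together with Fads2, had 114, 35.6, 52.9 and 136 FPKM in the controls and 179, 37.1 and 53.4 FPKM in Med23 CKO. Fads2 had 179, 37.8, 64.4 and 223 FPKM in the controls and 279, 38.3 and 62.1 FPKM in Med23 CKO, and its values spanned 7.38-fold, the widest range of the enzymes. Its means were 126 ± 89.1 FPKM in the controls (SD, n = 4) against 126 ± 133 FPKM in Med23 CKO (SD, n = 3), nearly equal, and its log2 fold change was -0.18 (SE 0.83, 95% interval -2.13 to 1.76). Over the 8 genes the log2 fold changes were all below 0, with a median of -0.14, and 0 passed the test.

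**Figure D3:**
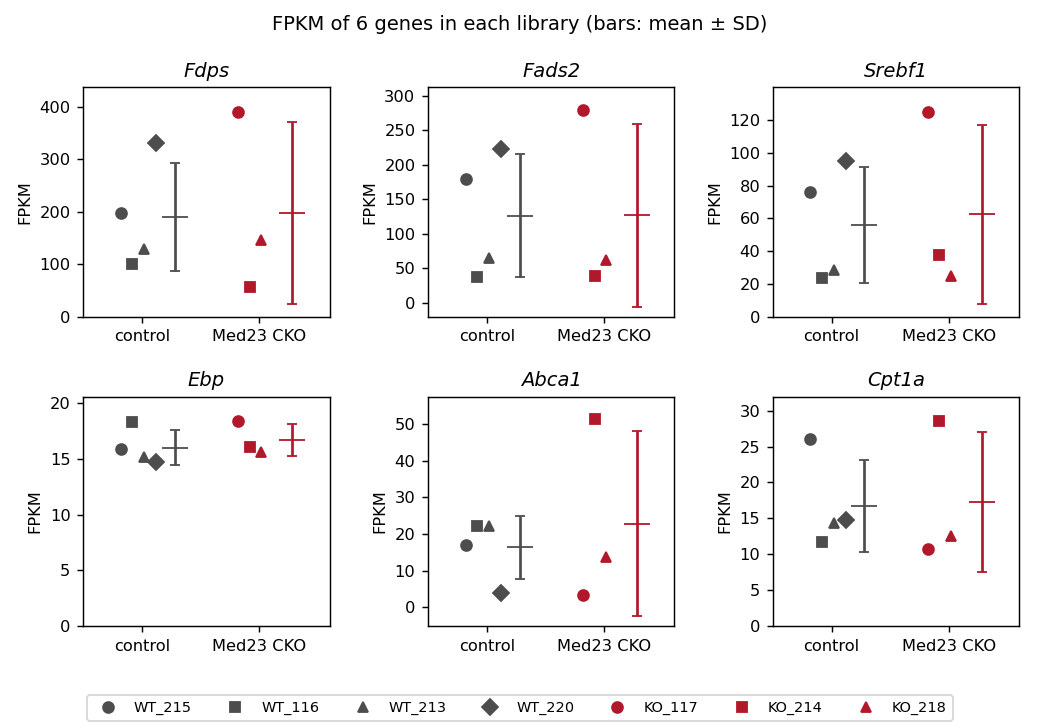
FPKM of 6 genes in each library (points, with a symbol for each mouse) and the mean ± SD of the 4 control and 3 Med23 CKO libraries (bars, some of which reach below 0). KO_117 is highest for Fdps, Fads2 and Srebf1, KO_214 is highest for Abca1 and Cpt1a, and the values of Ebp stay between 14.7 and 18.4 FPKM.

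Of the genes of sterol transport and LXR, Stard4 followed the enzymes and the exporters did not. Stard4, a sterol carrier and SREBP target, had 23.5, 9.98, 18.2 and 27.4 FPKM in the controls and 47.8, 5.02 and 22.2 FPKM in Med23 CKO, 9.52-fold from highest to lowest. Abca1 (chromosome 4, 53030789 to 53159988), which exports cholesterol to lipid-poor apolipoproteins and is a target of LXR, had 16.9, 22.3, 22.1 and 4.05 FPKM in the controls and 3.35, 51.2 and 13.8 FPKM in Med23 CKO. It had the widest range of the 35 genes, 15.3-fold, with both ends in Med23 CKO mice, and a log2 fold change of 0.01 (SE 0.88, 95% interval -2.05 to 2.07). Abcg1, the exporter to lipoprotein particles, had 6.56, 6.705, 5.19 and 2.23 FPKM in the controls and 2.14, 15.1 and 3.699 FPKM in Med23 CKO. In both exporters KO_214 was highest and KO_117 and WT_220 were lowest, the reverse of their places among the enzymes of synthesis. Nr1h3 (LXRα) was low and had 1.54, 1.79, 1.72 and 1.08 FPKM in the controls and 0.991, 3.52 and 1.61 FPKM in Med23 CKO, with the 3 lowest values in WT_215, WT_220 and KO_117. It was the only one of the 35 genes with that pattern, which 23.7% of all genes tested showed. Nr1h2 (LXRβ) was far higher, with 26.2, 27.2, 25.96 and 35.8 FPKM in the controls and 28.8, 35.5 and 16.96 FPKM in Med23 CKO, and its log2 fold change was -0.13 (SE 0.27, 95% interval -0.76 to 0.49). Cpt1a, which admits long-chain fatty acids to the mitochondrion for oxidation, had 26.1, 11.7, 14.4 and 14.8 FPKM in the controls and 10.8, 28.5 and 12.5 FPKM in Med23 CKO. WT_215 and KO_214 were high and the other 5 libraries between 10.8 and 14.8 FPKM, and its log2 fold change was -0.02 (SE 0.39, 95% interval -0.93 to 0.89).

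The means over the 3 enzyme roles were highest in KO_117 and lowest in KO_214. Mean log2(FPKM + 1) of the 6 mevalonate enzymes was 6.37, 5.68, 5.86 and 6.91 in the controls and 7.12, 4.91 and 5.96 in Med23 CKO. For the 11 sterol enzymes it was 5.29, 4.91, 4.97 and 5.43 in the controls and 5.84, 4.36 and 5.15 in Med23 CKO, and for the 8 fatty acid enzymes 6.82, 5.57, 5.83 and 6.94 in the controls and 7.27, 5.32 and 5.77 in Med23 CKO. The 5 transport and LXR genes went another way, highest in KO_214 and lowest in WT_220, with 3.56, 3.45, 3.52 and 3.02 in the controls and 3.05, 3.93 and 3.24 in Med23 CKO. Over all 35 genes it was 5.41 ± 0.39 for the controls (SD, n = 4) and 5.31 ± 0.67 for Med23 CKO (SD, n = 3), a difference smaller than either SD.

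Genes that mark proliferation and other cell types moved with these libraries. The summed FPKM of 12 cell cycle genes was 1069, 397, 581 and 1094 FPKM in the controls and 1451, 249.9 and 691 FPKM in Med23 CKO, and 12 of 12 had their 3 highest values in WT_215, WT_220 and KO_117. The summed FPKM of 16 microglia and macrophage markers was 158, 330.1, 447 and 73.9 FPKM in the controls and 73.8, 1908 and 346 FPKM in Med23 CKO. Their 3 lowest values were in the same trio for 13 of the 15 markers tested, and 14 of 15 were highest in KO_214, as were 10 of 10 endothelial markers and 25.4% of all genes tested. Of the defining markers, Csf1r had 1.58, 2.45, 4.96 and 0.873 FPKM in the controls and 0.787, 21.2 and 3.78 FPKM in Med23 CKO, and Cx3cr1 stayed below 1 FPKM in every library. Endothelial markers summed to 11.6, 31.96, 74.1 and 11.4 FPKM in the controls and 7.33, 138 and 43.7 FPKM in Med23 CKO, and mural cell and fibroblast markers to 107, 48.6, 95.9 and 63.4 FPKM in the controls and 56.01, 362 and 60.5 FPKM in Med23 CKO. Cspg4 made up most of the mural cell and fibroblast sum in WT_220 and KO_117. It had 43.2, 6.43, 12.6 and 50.99 FPKM in the controls and 47.2, 12.9 and 8.19 FPKM in Med23 CKO, whereas 8 of the 10 markers were highest in KO_214. No marker was at 0 in any library, and 0 of the 12 cell cycle genes, 15 tested microglia markers and 10 endothelial markers had an unadjusted p under 0.05. In bulk RNA a smaller share of cells that make sterols and less RNA of these genes per cell cannot be told apart, and the part of cell cycle or cell type in the levels of the 35 genes was not tested.

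The labels call the cells primary NSCs. Of the 12 stem cell and astrocyte markers, 6 had their 3 highest values in WT_215, WT_220 and KO_117, and 4 were highest in KO_214. Among the first, Nes had 144, 84.1, 109 and 186 FPKM in the controls and 240.5, 61.1 and 83.2 FPKM in Med23 CKO, and Sox2 had 155, 93.1, 109 and 191 FPKM in the controls and 194, 74.5 and 69.4 FPKM in Med23 CKO. The 4 that were highest in KO_214 were Gfap, Aldoc, Aqp4 and Prom1, and Gfap had 39.2, 69.6, 138 and 17.8 FPKM in the controls and 19.4, 321 and 116.5 FPKM in Med23 CKO. Myelin genes of oligodendrocytes were also present, with 838, 2234, 1023 and 238 FPKM in the controls and 66.5, 1515 and 1195 FPKM in Med23 CKO for Mbp. The 12 stem cell and astrocyte markers, of which Fabp7 and Vim were the most abundant, summed to 3594, 2015, 3333 and 3993 FPKM in the controls and 3945, 2353 and 2401 FPKM in Med23 CKO, the 10 oligodendrocyte markers to 3401, 5491, 2967 and 3105 FPKM in the controls and 2235, 3348 and 3094 FPKM in Med23 CKO, and the 10 neuron and neuroblast markers to 378, 253, 381 and 590.5 FPKM in the controls and 567, 115 and 248 FPKM in Med23 CKO. Gap43 and Map2 were the most abundant of the neuron and neuroblast markers by control mean and weighed most in that sum. Of the 9 tested, 1 (Map2) had its 3 highest values in WT_215, WT_220 and KO_117. Another 3 (Snap25, Stmn2 and Neurod1) had their 3 lowest values there. The oligodendrocyte list also held 2 patterns. Mbp was lowest in KO_117 and highest in WT_116, and 6 of the 10 markers had their 3 lowest values in WT_215, WT_220 and KO_117. The lineage factors Olig1 and Olig2 had their 3 highest values there, with 1361, 437, 603 and 1943 FPKM in the controls and 1586, 214.5 and 334 FPKM in Med23 CKO for Olig1 and 461, 152, 215.3 and 701 FPKM in the controls and 505, 83.96 and 149 FPKM in Med23 CKO for Olig2.

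**Figure D4:**
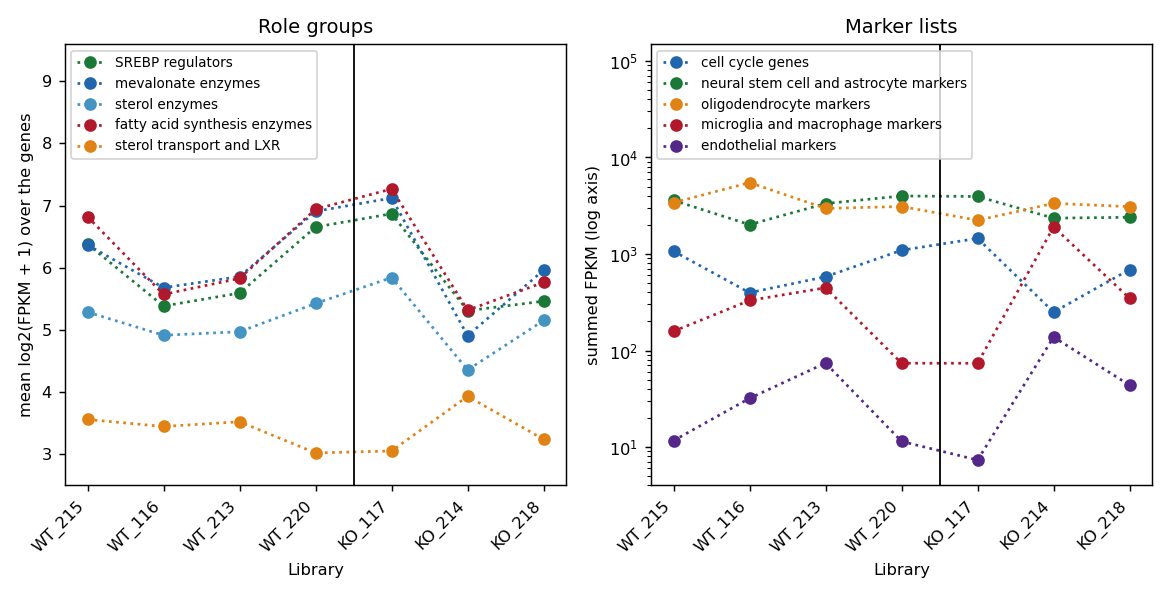
Left, mean log2(FPKM + 1) over the genes of each role in each library. Right, summed FPKM of marker lists on a log axis. The dotted lines only link the points of one list across the 4 control and 3 Med23 CKO libraries. Cell cycle genes are highest in KO_117 and lowest in KO_214, as are the enzymes of synthesis, whereas microglia and endothelial markers are highest in KO_214.

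Outside the 35 genes, 78 further genes of sterol and fatty acid metabolism were listed and 75 of them were tested. At an unadjusted p under 0.05, 2 of 75 were higher in Med23 CKO (0.502% of all genes tested) and 0 were lower (0.996%), and 0 passed after adjustment. One was Acsl4, which activates polyunsaturated fatty acids such as arachidonate. It had 18.3, 16.7, 21.3 and 15.5 FPKM in the controls and 28.9, 26.5 and 25.1 FPKM in Med23 CKO, with means of 17.99 ± 2.51 FPKM in the controls (SD, n = 4) against 26.9 ± 1.895 FPKM in Med23 CKO (SD, n = 3), so that the groups did not overlap. Its log2 fold change was 0.56 (SE 0.17, 95% interval 0.16 to 0.95), with an unadjusted p of 0.0119 and an adjusted p of 0.9999 from limma, and an exact permutation p of 0.0571. It ran from 0.50 to 0.64 and stayed under an unadjusted 0.05 with each of the 7 libraries left out. The other was Rxra, a retinoid X receptor that pairs with LXR. It had 8.06, 8.19, 7.88 and 7.35 FPKM in the controls and 10.8, 16.4 and 9.31 FPKM in Med23 CKO, with means of 7.87 ± 0.366 FPKM in the controls (SD, n = 4) against 12.2 ± 3.74 FPKM in Med23 CKO (SD, n = 3), and a log2 fold change of 0.53 (SE 0.22, 95% interval 0.02 to 1.05) at an unadjusted p of 0.0432 and an exact permutation p of 0.0286. With each of the 7 libraries left out Rxra ran from 0.32 to 0.69, lowest without KO_214, and passed the unadjusted 0.05 in 1 of 7 cases, without KO_218. Groups did not overlap for these 2 genes and for Ppargc1a, a coactivator of mitochondrial genes, named after its values were seen. Ppargc1a had 3.82, 2.34, 4.78 and 2.99 FPKM in the controls and 5.296, 4.81 and 5.98 FPKM in Med23 CKO, and its unadjusted p was 0.0597. All 3 lay above the controls, among 75 genes where 0.784% of all genes tested did so.

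By list, log2 fold changes were above 0 for 7 of 15 other genes of sterol synthesis and uptake, of which 0 passed an unadjusted 0.05, and their median was 0.00. They were above 0 for 8 of 17 other genes of sterol transport and oxysterols (median -0.01), where Rxra was the 1 that passed. They were above 0 for 12 of 27 other genes of fatty acid synthesis (median -0.03), where Acsl4 was the 1 that passed, and for 10 of 16 other genes of fatty acid oxidation (median 0.05), of which 0 passed. The 3 highest values lay in WT_215, WT_220 and KO_117 for 7 of 15, 4 of 17, 8 of 27 and 1 of 16 tested genes of the 4 lists. The highest value was in KO_214 for 11 of the 17 transport and oxysterol genes and for 10 of the 16 oxidation genes (25.4% of all genes tested), as it was for Abca1, Abcg1, Nr1h3 and Cpt1a.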

How the data were processed

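RNA of primary neurospheres from single mice was sequenced after library preparation with the NEBNext Ultra RNA kit, which does not mark strand. The authors trimmed adapters with cutadapt, aligned reads to mm10 with TopHat at default settings and deposited FPKM per gene from Cuffdiff. The deposited table also holds group means, fold changes and test values of the authors' comparison, which were not used. Depth is unknown: low FPKM values fell on no steps of whole fragments, with at most 3.08% of low genes in any bin of 0.05 log2 over 21 pairs of libraries. The number of libraries limits the precision. The paper gives 3 mice a group, and all 7 libraries were kept.

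Log2(FPKM + 1), with a pseudocount of 1, was compared by limma 3.58.1 (lmFit and eBayes with trend, R 4.3.3), two-sided, for the 14151 genes that averaged 0.5 FPKM or more over the libraries, with Benjamini-Hochberg adjustment and 95% moderated intervals. The study's own Cuffdiff test needs reads and was not refitted. Single genes were also tested by exact permutation over the 35 ways to draw 3 of 7 libraries. The pipeline was tested on simulated data. The members, gene lists and tests were chosen with earlier results of these data known. All 35 members are named, and other genes of the listed pathways at an unadjusted p under 0.05, with 1 exception, Ppargc1a, named after its values were seen. Positions and exon overlaps are from RefSeq and GENCODE M21, both on GRCm38 (mm10). Alternatives were a pseudocount of 0.1, no filter, a filter at a mean of 1 FPKM, quantile normalization, median centring, no trend, array weights, a covariate for the leading digit of the mouse number, exact permutation, and each library left out.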

Additional observations from a re-analysis of the deposited data

Results flagged for a closer look

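Nr1h2 (LXRβ) stood apart in control mouse WT_220, with 35.8 FPKM where the next control had 27.2, a gap of 0.876 of the range of the 4 controls, past the 95% limit of Dixon's test. It was the 1 value so marked among 53 sets of 4 control values that were examined, where chance marks about 1 in 20. Med23 CKO mouse KO_214 had a like value, 35.5 FPKM.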

How the results depend on the processing

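Of 9 alternatives that kept all libraries, 5 could move a log2 fold change (the other 4 alter only the test or the genes tested). Under these 5, 16 of 175 log2 fold changes of the 35 genes changed sign, none of them past a threshold, and the cause was not tested. A pseudocount of 0.1 gave -0.016 for Tm7sf2 and -0.020 for Abca1. Quantile normalization gave -0.0071 for Tm7sf2 and 0.014 for Cpt1a, and median centring 0.0035 for Cpt1a. Array weights gave -0.54 for Srebf1, 0.068 for Insig1, 0.31 for Idi1, -0.0059 for Fdft1, 0.14 for Cyp51, -0.21 for Tm7sf2, 0.086 for Stard4, -0.22 for Abca1 and -0.28 for Abcg1. A covariate for the leading digit of the mouse number gave -0.052 for Tm7sf2 and 0.032 for Cpt1a. The log2 fold change of Med23 was -0.43 with array weights, then past an unadjusted 0.05, and -0.32 to -0.19 with each library left out. Of the other genes, Rxra lost its unadjusted call with array weights, with the covariate and without each library but KO_218. Acsl4 lost its call by exact permutation (p = 0.0571), and Ppargc1a gained one with median centring (limma, unadjusted p = 0.0498).

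When single libraries were left out, 69 of 245 values changed sign, 23 of them without KO_214 and 16 without WT_220. The median over the 35 genes ran from -0.62 without KO_117 to 0.26 without KO_214. Those of the 35 that were higher at an unadjusted 0.05 ran from 0 to 2. The 2 were found without KO_214, where 78 of all 14151 genes tested were higher at that threshold. Genes called after adjustment ran from 0 to 1, with 1 without KO_214 and 1 without KO_218. Fasn (-1.33 to -0.032) and Scd2 (-0.56 to -0.044) kept their sign. The ranges of the others were -0.62 to 0.54 for Srebf1, -0.92 to 0.10 for Srebf2, -0.32 to 0.00089 for Scap, -0.64 to 0.63 for Insig1, -0.70 to 0.29 for Hmgcs1, -0.80 to 0.26 for Mvk, -0.74 to 0.23 for Pmvk, -1.003 to 0.19 for Mvd, -0.45 to 0.58 for Idi1, -0.92 to 0.48 for Fdps, -0.24 to 0.42 for Fdft1, -0.72 to 0.37 for Sqle, -0.62 to 0.44 for Lss, -0.52 to 0.50 for Cyp51, -0.68 to 0.50 for Tm7sf2, -0.15 to 0.43 for Msmo1, -0.68 to 0.35 for Nsdhl, -0.056 to 0.33 for Hsd17b7, -0.0076 to 0.12 for Ebp, -0.16 to 0.22 for Sc5d, -0.91 to 0.19 for Dhcr7, -0.50 to 0.23 for Acly, -0.58 to 0.15 for Acaca, -0.65 to 0.31 for Scd1, -0.64 to 0.42 for Elovl6, -0.72 to 0.40 for Fads1, -1.02 to 0.40 for Fads2, -0.73 to 0.78 for Stard4, -0.89 to 0.90 for Abca1, -0.60 to 0.57 for Abcg1, -0.35 to 0.16 for Nr1h2, -0.14 to 0.45 for Nr1h3 and -0.43 to 0.23 for Cpt1a.

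Of all genes tested, 71 passed an unadjusted 0.05 upward and 141 downward, against 193 and 887 with array weights and 140 and 201 with no filter. They were 354 and 410 without KO_117, 78 and 205 without KO_214, and 139 and 70 without KO_218. Over the libraries left out they ran from 45 to 354 and from 70 to 410. No paired analysis was possible because the labels do not say which mice were littermates. With 4 and 3 mice and the spread between them, differences of the size seen here could not be told from 0, which does not show that the groups were alike, and depth could not be judged from FPKM.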
